A study of Mus musculus with 5 samples.

Results

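The regions described here are the stretches of mouse heart chromatin with anti-ACAA2 signal that lie at Kdr, Nrp1, Fgfr1 and Tjp1. These are 3 genes of vascular growth factor receptors and 1 gene of a cell junction. Members were chosen by gene name: every region whose gene list in the deposited table held 1 of these 4 symbols was taken, which gave 5 regions of 3885 in all. Kdr, Fgfr1 and Tjp1 had 1 region each and Nrp1 had 2. The genes were picked with the average signals of these same libraries already known, so the signals and ratios below are a description of these libraries and carry no test.

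ACAA2, the mitochondrial thiolase that closes the beta-oxidation cycle, was the target named for the chromatin immunoprecipitation and sequencing (ChIP-seq). In the extraction protocol, antibodies to butyrylated and acetylated histone H3 are named instead. All hearts came from male C57Bl/6J mice of 12 weeks. The 4 groups were transverse aortic constriction (TAC) on a diet with 60 kcal% fat, sham surgery on 60 kcal% fat, TAC on 10 kcal% fat and sham surgery on 10 kcal% fat. Mice ate the diet for 4 days before surgery and for about a week after it. TAC narrows the aorta, so that the left ventricle pumps against a raised pressure. Each group was 1 library from a pool of 3 hearts. The spread between hearts is therefore unknown, and surgery or diet cannot be told apart from the library. A pooled input was not analysed here. In whole heart, fewer cells of a type and less signal per cell cannot be told apart.

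KDR, also called VEGFR2, is the main receptor through which vascular endothelial growth factor (VEGF) drives the growth and survival of endothelial cells. NRP1, neuropilin 1, is a co-receptor that binds VEGF and class 3 semaphorins and enhances signalling through KDR. FGFR1 is a receptor tyrosine kinase for fibroblast growth factors (FGFs) and signals through the Ras and MAP kinase cascade, as KDR does in part. TJP1, also called ZO-1, is a scaffold under tight junctions that ties junction proteins to actin, and in cardiomyocytes it is found at the intercalated disc.

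The regions lay at different places in their genes. Coordinates are those of the deposited table, in mm10, and gene extents are from RefSeq (GRCm38.p6, the same chromosome assembly). The Fgfr1 region was at chr8:25518641-25518877, centred 13 bp upstream of the start site, and held a promoter and a CpG island. The Tjp1 region was at chr7:65371015-65371220, centred 127 bp inside the gene from the start site used in the table, and also held a promoter and a CpG island. RefSeq extends Tjp1 further upstream, so this start lies inside the longest gene model. The other 3 regions held neither a promoter nor a CpG island. The Kdr region was at chr5:75933645-75933875, centred 44668 bp from the start site and 98.0% of the way along the gene, with 818 bp left to its annotated end. Nrp1 region 1 was at chr8:128437458-128437692, 78502 bp from the start site, and Nrp1 region 2 at chr8:128491663-128491978, 132747 bp from it. They lay 53.8% and 90.7% along the gene and 53971 bp apart. Whether these 3 regions are exonic or intronic was not analysed here. Each of the 5 regions was assigned to 1 gene only, was 205 to 315 bp long and was built from 1 called interval.

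**Figure D1:**
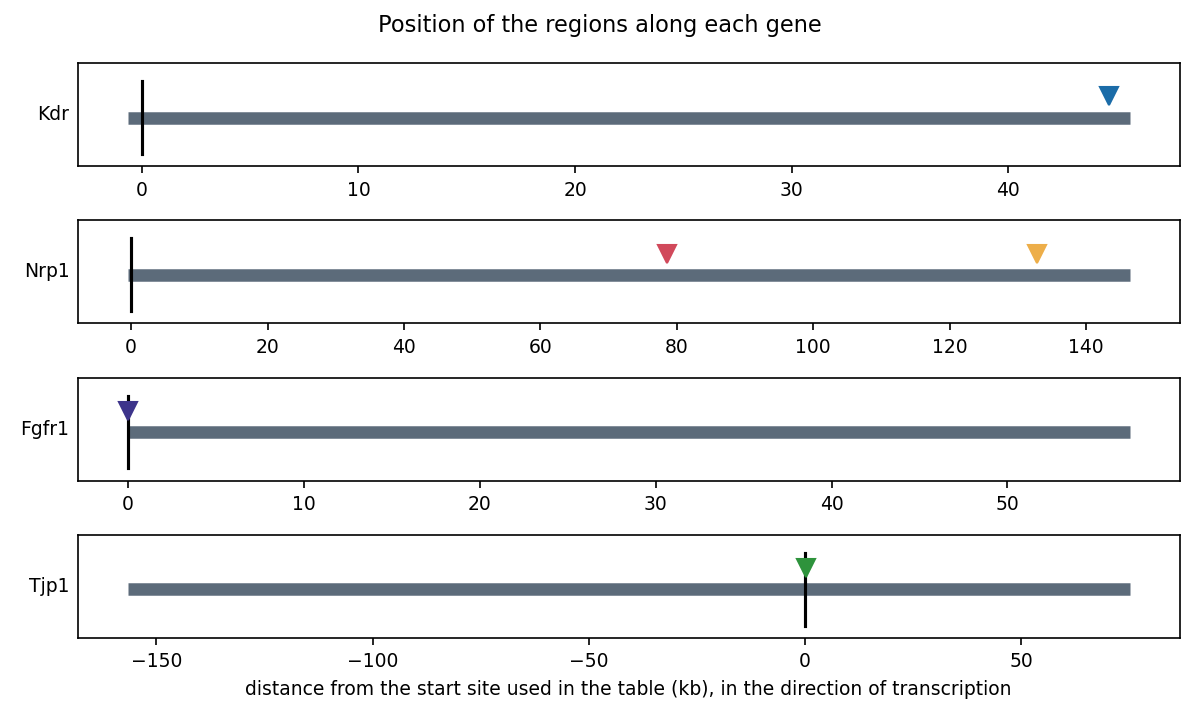
Position of the 5 regions (triangles) along Kdr, Nrp1, Fgfr1 and Tjp1. The x axis is the distance in kb from the start site used in the table (vertical line), in the direction of transcription, and the bar is the RefSeq gene extent. The Kdr region and Nrp1 region 2 sit near the far end of their genes, at 98.0% and 90.7% of the gene extent, while the Fgfr1 and Tjp1 regions sit at a start site.

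The promoters of Kdr, Nrp1 and Tjp1 are shown because 2 of these genes carried signal away from them and 1 carried it at its start. They run from 250 bases before to 50 after the RefSeq start site, in GRCm38.p6, 5′ to 3′ on the strand of the gene. The Kdr window is chr5:75978406-75978705 (minus strand), the Nrp1 window chr8:128358823-128359122 (plus strand) and the Tjp1 window chr7:65371195-65371494 (minus strand). No promoter sequence of Fgfr1 is printed. Capitals mark the GC box GGGCGG, the core of sites bound by Sp-family factors, on either strand.
Kdr: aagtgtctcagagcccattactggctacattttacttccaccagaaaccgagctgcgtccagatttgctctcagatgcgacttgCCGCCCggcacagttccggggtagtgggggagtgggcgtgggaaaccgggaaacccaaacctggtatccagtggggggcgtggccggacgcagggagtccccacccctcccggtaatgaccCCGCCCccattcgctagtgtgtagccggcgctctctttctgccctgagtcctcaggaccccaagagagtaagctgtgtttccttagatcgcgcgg
Nrp1: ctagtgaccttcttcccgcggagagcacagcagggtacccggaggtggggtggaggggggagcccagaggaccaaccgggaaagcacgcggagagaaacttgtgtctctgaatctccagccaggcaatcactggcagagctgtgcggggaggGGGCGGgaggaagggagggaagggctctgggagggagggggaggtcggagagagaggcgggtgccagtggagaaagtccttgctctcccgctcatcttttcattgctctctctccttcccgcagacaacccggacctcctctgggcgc
Tjp1: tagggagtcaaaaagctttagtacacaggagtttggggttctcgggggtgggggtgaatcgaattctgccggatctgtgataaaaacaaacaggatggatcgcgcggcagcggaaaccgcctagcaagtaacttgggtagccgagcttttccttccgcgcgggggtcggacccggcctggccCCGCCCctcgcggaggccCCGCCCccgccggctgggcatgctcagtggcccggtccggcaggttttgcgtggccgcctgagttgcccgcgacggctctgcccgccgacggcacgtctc

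Neither the Kdr nor the Nrp1 promoter window met a region of the table. The Tjp1 window shared its last 26 bases, from base 25 to base 50 after the start, with the Tjp1 region. The table does not say whether its coordinates count from 0 or 1, so the overlap may differ by 1 base. That stretch holds 4 CpG dinucleotides, in capitals here.
Tjp1 start, shared with the region: ggctctgccCGcCGaCGgcaCGtctc
The Tjp1 promoter held 31 CpG dinucleotides in its 300 bases, with a ratio of observed to expected CpG of 0.972 and 65.3% G and C. The Kdr promoter held 19 (ratio 0.689, 60.7% G and C), and the Nrp1 promoter 14 (ratio 0.474, 64.0%). Over the 2461 promoters of the RefSeq table that met any region the median was 24 CpG, with a ratio of 0.851, against 7 and 0.389 over all 27025 promoters. By CpG content the Tjp1 promoter thus lay above the median promoter with signal and those of Kdr and Nrp1 below it, though above the median of all promoters. GC boxes numbered 2 in Kdr, 1 in Nrp1 and 2 in Tjp1, and 69.4% of promoters meeting a region and 35.9% of all promoters held at least 1. None of the 3 promoters held a CCAAT box (CCAAT, in 37.9% of all promoters), a TATA box (TATAAA, 14.2%), an E-box (CACGTG, 7.24%), an AP-1 motif (TGANTCA, 7.93%) or a CRE (TGACGTCA, 1.88%), searched on both strands. Kdr alone had the ETS core GGAAGT, in 1 copy, a motif present in 24.1% of all promoters. No searched motif overlapped a GC box. These letters are a description of the windows and say nothing on whether a factor bound there.

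Depth was low. On 60% fat diet the regions together held an estimated 62559 fragments after TAC and 49593 after sham surgery, and on 10% fat diet 68963 after TAC and 75313 after sham surgery. The total depth of each library is not given in the sources used here. Average signal is the mean fragment pileup over a region, and its median over all regions was 9.67, 7.29, 10.7 and 11.8 in these libraries, in the same order. A member region had an estimated 2 to 15 fragments in a library, computed from average signal and length and rounded to whole fragments. This is a coverage equivalent and not a count of the fragments meeting the region. At Kdr in sham hearts on 10% fat diet the highest pileup, 18, exceeded the estimate of 15. The highest pileup also exceeded the estimate at the other members except Nrp1 region 2. Fragment numbers behind the intervals below are these estimates, so the widths of the intervals are approximate. Intervals below are 95% intervals for counting error only, since the labels name no molecular identifiers and copies of 1 molecule may be counted, and none covers variation between hearts.

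Each of the 5 regions was called as an interval in exactly 1 library, and each had its highest signal in that library. Of all regions, 63.8% were called in exactly 1 library. Kdr and Fgfr1 were called in sham hearts on 10% fat diet, Tjp1 and Nrp1 region 2 in TAC hearts on 10% fat diet, and Nrp1 region 1 in TAC hearts on 60% fat diet. None was called in sham hearts on 60% fat diet. For comparison, 35.9% of all regions were called in TAC hearts on 60% fat diet, 15.4% in sham hearts on 60% fat diet, 46.8% in TAC hearts on 10% fat diet and 57.3% in sham hearts on 10% fat diet. A region entered the table only by being called somewhere, so a high value in the calling library was required of it. The highest and lowest libraries compared below were also picked by their values. An interval that excludes equality for such a pair is therefore a description.

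The Kdr region had an average signal of 4.86 in TAC hearts on 60% fat diet, 3.57 in sham hearts on 60% fat diet, 2.33 in TAC hearts on 10% fat diet and 14.4 in sham hearts on 10% fat diet. Sham hearts on 10% fat diet were highest, with an estimated 15 fragments against 5 in the next library. The interval of this ratio began just above equality, at 0.05 on the log2 scale, and included it once fragments were scaled by their sums over all regions (-0.22 to 3.13), a choice added after seeing the data. The other 3 libraries, with 2 to 5 fragments, were not separated from their neighbours in the order. The 95% Poisson interval of the signal was 0.236 to 7.04 in TAC hearts on 10% fat diet and 8.18 to 24.1 in sham hearts on that diet. The signal was above 1.21% of all regions in TAC hearts on 10% fat diet and above 73.3% of them in sham hearts on that diet.

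The Fgfr1 region, at the other end of its gene, had a like profile. Its signal was 8.14 in TAC hearts on 60% fat diet, 3.57 in sham hearts on 60% fat diet, 2.57 in TAC hearts on 10% fat diet and 14.6 in sham hearts on 10% fat diet. The interval between the highest and the lowest library excluded equality (15 and 3 fragments), but no interval between neighbours in the order did.

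Nrp1 had a different profile at each of its regions. Region 1 had 14.0 in TAC hearts on 60% fat diet, 6.43 in sham hearts on 60% fat diet, 2.43 in TAC hearts on 10% fat diet and 8.29 in sham hearts on 10% fat diet. Region 2 had 3.22 in TAC hearts on 60% fat diet, 6.60 in sham hearts on 60% fat diet, 10.6 in TAC hearts on 10% fat diet and 9.60 in sham hearts on 10% fat diet. The library that was highest at region 1 was thus the lowest at region 2, and TAC hearts on 10% fat diet were lowest at region 1 and highest at region 2. Intervals between neighbours in the order included equality at either region. Those between the highest and lowest libraries excluded it (15 and 3 fragments at region 1, 15 and 5 at region 2). At region 2 this held only without scaling (scaled interval -0.09 to 3.26).

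The Tjp1 region had a signal of 2.17 in TAC hearts on 60% fat diet, 4.50 in sham hearts on 60% fat diet, 13.5 in TAC hearts on 10% fat diet and 5.83 in sham hearts on 10% fat diet. Its order of libraries was that of Nrp1 region 2. TAC hearts on 10% fat diet were highest and TAC hearts on 60% fat diet lowest. The interval between these libraries excluded equality (12 and 2 fragments), and none between neighbours in the order did.

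**Figure D2:**
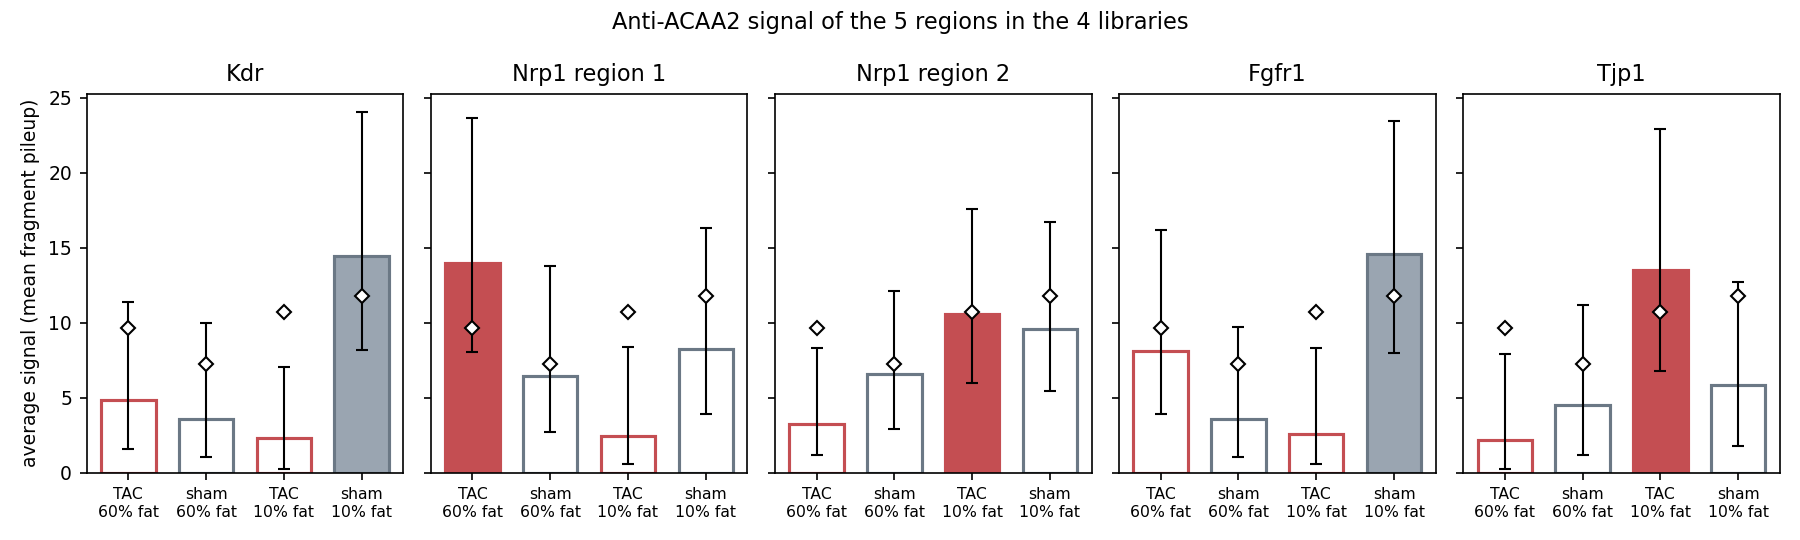
Average signal (mean fragment pileup, y axis from 0) of the 5 regions in the 4 libraries. Bars are red for TAC and grey for sham and filled where the library was called, whiskers are 95% counting intervals, and diamonds give the median of all 3885 regions in that library. Each region has 1 filled bar, for example 14.4 for Kdr in sham hearts on 10% fat diet and 14.0 for Nrp1 region 1 in TAC hearts on 60% fat diet.

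Highest signals within the regions followed the averages. The highest pileup at Kdr was 8, 6, 5 and 18 fragments in TAC and sham hearts on 60% fat diet and TAC and sham hearts on 10% fat diet, in that order. In the same order it was 10, 5, 4 and 17 at Fgfr1 and 3, 8, 16 and 9 at Tjp1. At Nrp1 it was 16, 9, 4 and 11 in region 1 and 4, 8, 13 and 13 in region 2, where TAC and sham hearts on 10% fat diet were equal.

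The comparison of TAC with sham hearts asks how the signal at these genes differed after pressure overload. Ratios are log2 of the average signals with a pseudocount of 1, and a ratio of at least 2-fold in either direction was counted. The intervals use the fragments without a pseudocount or scaling. On 10% fat diet the signal was lower after TAC at Kdr, with -2.21 (interval -6.08 to -0.80), and at Fgfr1, with -2.12 (-4.75 to -0.50), and with scaled fragments both intervals stayed below 0 (-5.95 to -0.68 and -4.62 to -0.37). At Nrp1 region 1 it was -1.44 (-4.11 to 0.42), an interval that includes equality. Tjp1 was higher, with 1.09 (-0.35 to 3.12), and Nrp1 region 2 was at 0.13 (-1.05 to 1.26). Thus 3 of the 5 regions were 2-fold lower and 1 was 2-fold higher. Over all regions 11.7% were 2-fold lower and 7.98% 2-fold higher, but these members were chosen with this comparison known, so nothing is read from their share here or in the comparisons below. Relative to the median of all regions, which was -0.14, Kdr was at -2.07, Fgfr1 at -1.99, Nrp1 region 1 at -1.30, Nrp1 region 2 at 0.27 and Tjp1 at 1.22.

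Ratios went with the library in which a region was called. Of the 1068 regions with a call only in sham hearts on 10% fat diet, 33.1% were at least 2-fold lower after TAC on that diet, with a median of -0.82. In that group 13 regions had a lower ratio than Kdr and 17 a lower one than Fgfr1. Of the 760 regions called in TAC hearts on 10% fat diet alone, 33.6% were at least 2-fold higher, with a median of 0.78, and 205 had a higher ratio than Tjp1. Nrp1 region 2 came from the same 760 and stood low among them, with 28 below it.

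The 5 regions had the other sign on 60% fat diet. Fgfr1 was at 1.00 (-0.67 to 3.32), Nrp1 region 1 at 1.01 (-0.28 to 2.64) and Kdr at 0.36 (-1.89 to 2.66), all higher after TAC. Nrp1 region 2 was at -0.85 (-2.77 to 0.88) and Tjp1 at -0.80 (-4.47 to 1.80). Every one of these intervals includes equality. At least 2-fold higher were 2 of 5 regions, against 15.5% of all regions, and 0 of 5 were 2-fold lower, against 3.11%. Of the 521 regions called in TAC hearts on 60% fat diet alone, as Nrp1 region 1 was, 54.9% were 2-fold higher in this comparison, and 271 of them had a higher ratio than this region. The median of all regions was 0.32 on this diet. Relative to it, Kdr was at 0.034, close to 0, and Fgfr1 (0.68) and Nrp1 region 1 (0.69) were no longer 2-fold higher, and Nrp1 region 2 (-1.17) and Tjp1 (-1.12) were at least 2-fold lower.

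**Figure D3:**
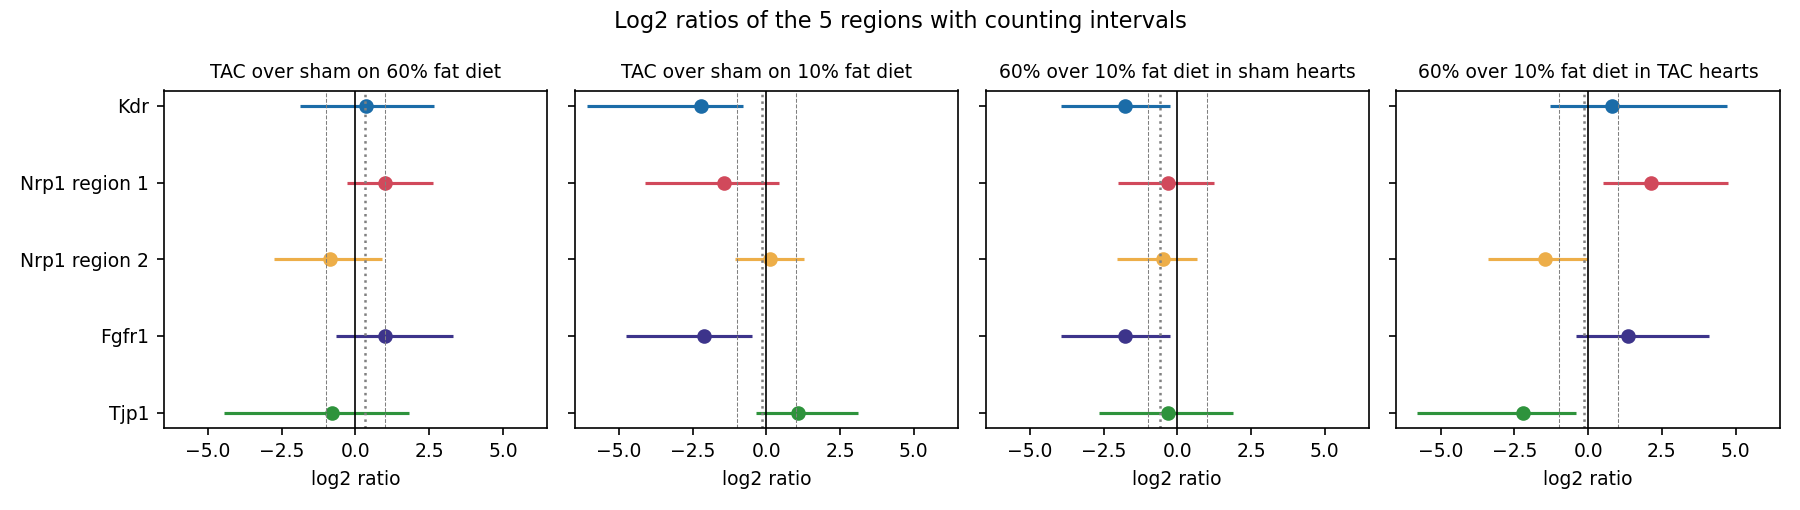
Log2 ratios (points, pseudocount of 1) and 95% counting intervals (lines, without a pseudocount) of the 5 regions in the 4 comparisons. Dashed lines mark 2-fold, the dotted line the median of all regions. On 10% fat diet the intervals of Kdr (-6.08 to -0.80) and Fgfr1 (-4.75 to -0.50) lie below 0, and on 60% fat diet all 5 intervals cross 0.

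The difference between the diets, the ratio on 60% minus that on 10% fat diet, was 3.12 at Fgfr1 (interval 0.96 to 6.79), 2.57 at Kdr (0.11 to 7.17) and 2.45 at Nrp1 region 1 (0.29 to 5.68). It was -0.98 at Nrp1 region 2 (-3.24 to 1.08) and -1.88 at Tjp1 (-6.18 to 0.99). The median of all regions was 0.45. It was 1.03 over the 1068 regions that share the single call of Kdr and Fgfr1. Over the 521 that share the single call of Nrp1 region 1 it was 1.08. Over the 760 that share that of Nrp1 region 2 and Tjp1 it was -0.62. Each member thus had the sign of the regions with its own call, and lay further from 0 than their median. Beyond 1 log2 unit above 0 lay 3 of 5 regions, against 28.9% of all regions, and 1 of 5 lay beyond 1 unit below 0, against 8.7%. Only 20 of the 3885 regions had a larger difference than Fgfr1. Opposite signs on the diets were found in 5 of 5 regions and in 51.1% of all regions. At Fgfr1 and Nrp1 region 1 both ratios were at least 2-fold, lower after TAC on 10% and higher on 60% fat diet, a pattern held by 69 regions of the table. With fragments scaled by their sums, the interval of the difference stayed above 0 at Fgfr1 (0.50 to 6.33) but included 0 at Kdr (-0.36 to 6.71) and Nrp1 region 1 (-0.17 to 5.21). The difference between diets has no replicate behind it and was not tested.

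**Figure D4:**
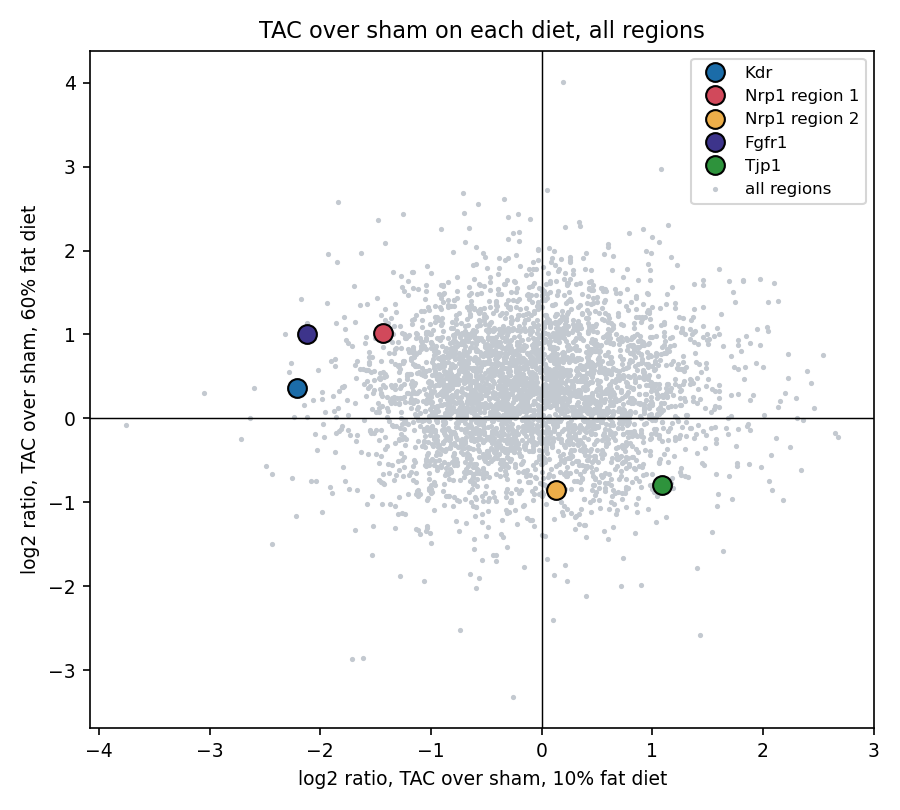
Log2 ratio of TAC over sham hearts on 60% fat diet (y axis) against that on 10% fat diet (x axis) for all 3885 regions (grey) and the 5 regions (coloured). Kdr, Fgfr1 and Nrp1 region 1 lie at the upper left, with -2.21, -2.12 and -1.44 on 10% fat diet, and Tjp1 and Nrp1 region 2 at the lower right.

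The comparisons of diet share their libraries with those of surgery, so their values are given side by side and not as separate evidence. In sham hearts the signal was lower on 60% than on 10% fat diet at Fgfr1, with -1.77 (-3.96 to -0.26), and at Kdr, with -1.76 (-3.96 to -0.26). With fragments scaled by their sums both intervals included 0 (-3.35 to 0.35). Nrp1 region 1 was at -0.32 (-2.02 to 1.23), Nrp1 region 2 at -0.48 (-2.03 to 0.67) and Tjp1 at -0.31 (-2.66 to 1.89). The median of all regions was -0.57. Relative to it Fgfr1 (-1.19) and Kdr (-1.18) were still 2-fold lower, while Nrp1 region 1 (0.25), Nrp1 region 2 (0.093) and Tjp1 (0.26) turned positive. The 1068 regions that share the single call of Fgfr1 and Kdr had a median ratio of -1.06 here, before centring. Of these, 134 had a lower ratio than Fgfr1 and 139 a lower one than Kdr. At least 2-fold lower were 2 of 5 regions, against 24.8% of all regions, and 0 of 5 were 2-fold higher, against 2.01%.

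In TAC hearts the diet comparison spread the regions furthest. Nrp1 region 1 was higher on 60% fat diet, with 2.13 (0.50 to 4.75), and Tjp1 lower, with -2.19 (-5.79 to -0.42). Fgfr1 was at 1.36 (-0.42 to 4.11), Kdr at 0.81 (-1.29 to 4.71) and Nrp1 region 2 at -1.46 (-3.40 to -0.05), whose interval included 0 after that scaling (-3.26 to 0.09). At least 2-fold higher were 2 of 5 regions, against 7% of all regions, and 2 of 5 were 2-fold lower, against 11.3%. Relative to the median of all regions, -0.14, the 5 regions kept their signs, with 2.27 at Nrp1 region 1 and -2.05 at Tjp1. Of all regions 12 had a higher ratio than Nrp1 region 1 and 17 a lower one than Tjp1. Among the 521 regions called in TAC hearts on 60% fat diet alone, 9 had a higher ratio than Nrp1 region 1. Among the 760 regions called in TAC hearts on 10% fat diet alone, which include Tjp1 and Nrp1 region 2, 41.1% were 2-fold lower in this comparison.

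After TAC on 10% fat diet the ratios of the whole table differed between annotation classes. The 210 regions inside 1 gene without promoter or CpG island, like those of Kdr and Nrp1, were 2-fold lower after TAC on 10% fat diet in 64 cases (30.5%) and 2-fold higher in 23 cases, with a median of -0.42. In this class 5 regions had a lower ratio than Kdr. The 2711 regions with a promoter and a CpG island, like those of Fgfr1 and Tjp1, were 2-fold lower in 241 cases (8.89%) and higher in 187, with a median of -0.092. Of these 2 had a lower ratio than Fgfr1. Kdr and Fgfr1 were called in the sham library of this comparison alone. Low ranks were thus favoured, and nothing is read from them. On 60% fat diet the medians of these classes were 0.29 inside genes and 0.32 at promoters with a CpG island, and the class inside genes had more 2-fold regions in both directions, 22.9% higher and 5.71% lower, against 14.3% and 2.25%. In the diet comparison in TAC hearts, 1 of the 210 regions had a higher ratio than Nrp1 region 1, itself called in TAC hearts on 60% fat diet alone.

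Over the 4 libraries, the closest profiles among the 5 regions were those of regions called in the same library, a likeness that the calls favour. Nrp1 region 1, called in TAC hearts on 60% fat diet, had no such partner. The distance used was Euclidean over 4 log2 signals centred on the mean of each region. It was 0.53 between Kdr and Fgfr1 and 0.73 between Tjp1 and Nrp1 region 2. Between Nrp1 region 1 and Fgfr1 it was 1.21. The largest distances were between Tjp1 and Nrp1 region 1 (3.08) and between Tjp1 and Fgfr1 (2.80). The Nrp1 regions were 2.54 apart, further than Kdr from Fgfr1, although they lie in the same gene. With 4 libraries per profile these distances only describe.

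Among 729 other single-gene regions of high signal, the profiles most like Kdr were at Atp6v1g1, a subunit of the vacuolar proton pump (distance 0.29), the lipid phosphatase gene Mtmr3 (0.46) and Ergic1 (0.50). Those most like Fgfr1 included Cic, a transcriptional repressor downstream of receptor tyrosine kinases (0.50), and the histone methyltransferase gene Suv420h1 (0.52). Closest to Nrp1 region 1 were Fam43a (0.43), Tmem170 (0.54) and the class I myosin gene Myo1e (0.62). Closest to Nrp1 region 2 were Cdc42ep2, an effector of the GTPase CDC42 (0.24), the splicing factor gene Tra2b (0.24) and Utp3 (0.25). Closest to Tjp1 were Trdmt1, a tRNA methyltransferase gene (0.18), Esd (0.34) and the casein kinase gene Csnk1a1 (0.37). Of the 15 regions most alike, 3 for each member, 14 were, like the members, called in 1 library only, the exception being Utp3 with 2. The share over all regions was 63.8%. A match to a profile with 1 high library favours such regions, so nothing is read from this count.

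Neighbouring regions within 500 kb did not share the members' profiles throughout. The nearest region to Kdr, 207 kb away at Srd5a3, had 10.6, 9.82, 10.3 and 11.7 in TAC and sham hearts on 60% fat diet and TAC and sham hearts on 10% fat diet, a nearly even level. Itgb1, the beta-1 integrin gene and the nearest other gene with a region beside Nrp1, had 18.3, 4.42, 10.3 and 4.83 in that order, higher after TAC on both diets (log2 ratio 1.84 on 60% and 0.96 on 10% fat diet). Around Fgfr1 there were 7 regions, at Plekha2, Letm2, Whsc1l1, Ppapdc1b, Ddhd2, Gm17484, Bag4, Lsm1 and a stretch without a gene. They had log2 ratios of TAC over sham on 10% fat diet from -1.26, in that stretch, to 1.71, at the region shared by Whsc1l1, Ppapdc1b and Ddhd2. Tjp1 had 0 other regions within 500 kb.

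The genes around these receptors and junctions were taken from 7 lists, chosen with earlier results of these data known. Of 170 listed genes 54 had a region, or 31.8%, against 20.8% of all protein-coding genes. A gene's ratio is the mean over its regions, and the counts include Kdr, Nrp1, Fgfr1 and Tjp1. After TAC on 60% fat diet 10 of the 54 genes were at least 2-fold higher (18.5%) and 1 lower (1.85%), against 13.2% and 2.14% of the 5129 genes with a region. After TAC on 10% fat diet 5 of the 54 were higher (9.26%) and 7 lower (13.0%), against 6.78% and 9.14%. For 60% over 10% fat diet 1 was higher and 13 were lower in sham hearts, against 1.5% and 22.3% of all genes, and 7 were higher and 10 lower in TAC hearts, against 5.01% and 9.46%. In a choice added after seeing the data, ratios were also measured from the median of all regions. The counts after TAC then became 3 higher and 5 lower on 60% fat diet and 8 higher and 5 lower on 10% fat diet. Those for diet became 1 higher and 5 lower in sham hearts and 7 higher and 8 lower in TAC hearts. The same centring over all 3885 regions gave 272 higher and 300 lower after TAC on 60% fat diet. On 10% fat diet it gave 425 and 324. For diet it gave 321 and 266 in sham hearts and 368 and 307 in TAC hearts. These are also the background of the centred counts of single lists below. Centring balances such counts by construction, so nothing is read from the change on 60% fat diet. The medians over the 54 genes were 0.45 and 0.00 after TAC on 60% and 10% fat diet, against 0.33 and -0.13 over all genes.

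Of 10 VEGF ligands and receptors 3 had a region. After TAC 0 of these were 2-fold higher, against 13.2% of all genes on 60% and 6.78% on 10% fat diet. Kdr alone was 2-fold lower after TAC on 10% fat diet, against 9.14% of all genes. Vegfa, the ligand of KDR, had a region inside the gene with 5.25 in TAC and 5.38 in sham hearts on 60% fat diet and 6.12 in TAC and 12.3 in sham hearts on 10% fat diet. Its log2 ratios were -0.03 on 60% and -0.90 on 10% fat diet. Vegfa was thus, like Kdr, highest in sham hearts on 10% fat diet, without reaching 2-fold after TAC. That library also had the highest median signal over all regions, 11.8, and the largest share of called regions, 57.3%. Nrp1, by the mean of its opposing regions, was at 0.08 on 60% and -0.65 on 10% fat diet. The other VEGF receptor genes Flt1 and Flt4, the co-receptor gene Nrp2 and the ligand genes Vegfb, Vegfc, Vegfd and Pgf had no region in the table. On the semaphorin side 2 of 15 genes had a region and 0 differed by 2-fold in any of the 4 comparisons. With 2 genes, nothing is read from that. Sema3b, a ligand of neuropilins, was at -0.67 and -0.85 on 60% and 10% fat diet, and Gipc1, which binds the tail of NRP1, at 0.67 and -0.53.

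The FGF list had regions at 11 of 28 genes. On 10% fat diet Fgfr1 was the only one of the 11 with a ratio below 0. Of all genes with a region 56.9% lay below 0 and 42.5% above it. Klb (0.08), Spred2 (0.13) and Dusp6 (0.19) lay close to 0. Fgfr1 and the list were chosen with earlier results of these data known, so nothing is read from this contrast. On 10% fat diet 3 of the 11 were 2-fold higher, against the 6.78% of all genes given above. These were Plcg1, a phospholipase activated by the receptors, at 1.46, the feedback inhibitor gene Spry1 at 1.23 and the docking protein gene Frs2 at 1.06. Spry1 had a signal of 5.11 in TAC and 5.22 in sham hearts on 60% fat diet and of 15.7 in TAC and 6.11 in sham hearts on 10% fat diet. On 60% fat diet 4 of the 11 were 2-fold higher, against 13.2% of all genes, and 0 lower, against 2.14%. The higher ones were Sos1, a Ras activator, at 1.49, the FGF co-receptor gene Klb at 1.11, Spred2, an inhibitor of the Ras cascade, at 1.02, and Fgfr1 at 1.00. By each gene's highest region 2 were 2-fold higher, and in regions with 1 gene symbol 3 were. Frs3, with the highest signal of the list, was at 0.87 on 60% and 0.54 on 10% fat diet. The median of the list was 0.87 on 60% and 0.70 on 10% fat diet. Measured from the median of all regions, the list had 1 gene 2-fold higher (Sos1) and 1 lower on 60% fat diet, and 3 higher and 1 lower on 10% fat diet. The other FGF receptor genes, Fgfr2, Fgfr3 and Fgfr4, had no region.

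In the kinase cascade below the receptors 12 of 32 genes had a region. Map2k1, a MAP kinase kinase, was at -1.27 and the stress kinase gene Mapk14 at -1.04 after TAC on 10% fat diet. These were the 2 genes 2-fold lower, against 9.14% of all genes, and 0 were higher, against 6.78%. After TAC on 60% fat diet Pik3r1, a regulatory subunit of PI3-kinase, was at 1.63 and Nras at 1.11. Thus 2 of the 12 were 2-fold higher, against 13.2% of all genes, and 0 were lower, against 2.14%. Measured from the median of all regions 1 gene (Pik3r1) was higher and 0 were lower on 60% fat diet, and 1 was higher and 1 (Map2k1) lower on 10% fat diet. Nos3, the endothelial nitric oxide synthase gene, had the highest mean signal, with 21.4 in TAC and 13.0 in sham hearts on 60% fat diet and 16.0 in both TAC and sham hearts on 10% fat diet. Other vascular receptors and ligands had regions at 10 of 30 genes. Ephb4, a receptor of venous endothelium, was at -1.40 on 10% fat diet. There 1 gene of the list was 2-fold lower, against 9.14% of all genes, and 0 were higher, against 6.78%. The receptor genes Bmpr2 and Tgfbr1 were at 1.97 and 1.01 on 60% fat diet. On that diet 2 of the 10 genes were 2-fold higher, against 13.2% of all genes, and 0 were lower, against 2.14%. Measured from the median of all regions this list had 1 gene higher and 1 lower on each diet, Bmpr2 being the higher one on both. Tgfbr2 was at 0.58 and -0.62 and Insr, the insulin receptor gene, at 0.52 and 0.11 on 60% and 10% fat diet.

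Tight junction genes with a region numbered 8 of 32. Tjp1 was the only one 2-fold higher after TAC on 10% fat diet, where the scaffold gene Magi1 was at -1.01 and Esam, an adhesion molecule of endothelial cells, at -1.15. Of all genes 6.78% were 2-fold higher and 9.14% lower in this comparison. On 60% fat diet 2 genes of the list were 2-fold higher, among them Magi1 at 1.00, against 13.2% of all genes. On that diet 0 were 2-fold lower, against 2.14%. Measured from the median of all regions 0 were 2-fold higher and 2 were lower on 60% fat diet, Tjp1 and Pard6a, and 1 was higher and 1 lower on 10% fat diet, where Magi1 was no longer 2-fold lower. Tjp3, a paralogue of Tjp1, shared its 6 regions with other genes and was at -0.29 and -0.81 on 60% and 10% fat diet, and the polarity gene Pard6a was at -0.69 and -0.62. Of 23 genes of adherens junctions, desmosomes and gap junctions 8 had a region. Afdn, which encodes afadin, a TJP1 partner that links nectins to actin, had the signs of Tjp1 with -1.05 on 60% and 1.59 on 10% fat diet. It was the only gene of that list that differed by 2-fold after TAC by the mean over regions. Of all genes 6.78% were 2-fold higher on 10% and 2.14% lower on 60% fat diet. Measured from the median of all regions, 2 genes of the list were higher on 10% fat diet. By each gene's highest region 1 was higher on 60% fat diet. Ctnnb1, the beta-catenin gene, was at 0.59 and -0.16, and Vcl, the vinculin gene, at 0.11 and -0.44. Regions of Sema3b, Frs3, Klb, Plcg1, Nos3, Mapk14, Map2k1, Nras, Tjp3, Pard6a, Esam and Ctnnb1 were shared with other genes, so their signal may belong to a neighbour.

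**Figure D5:**
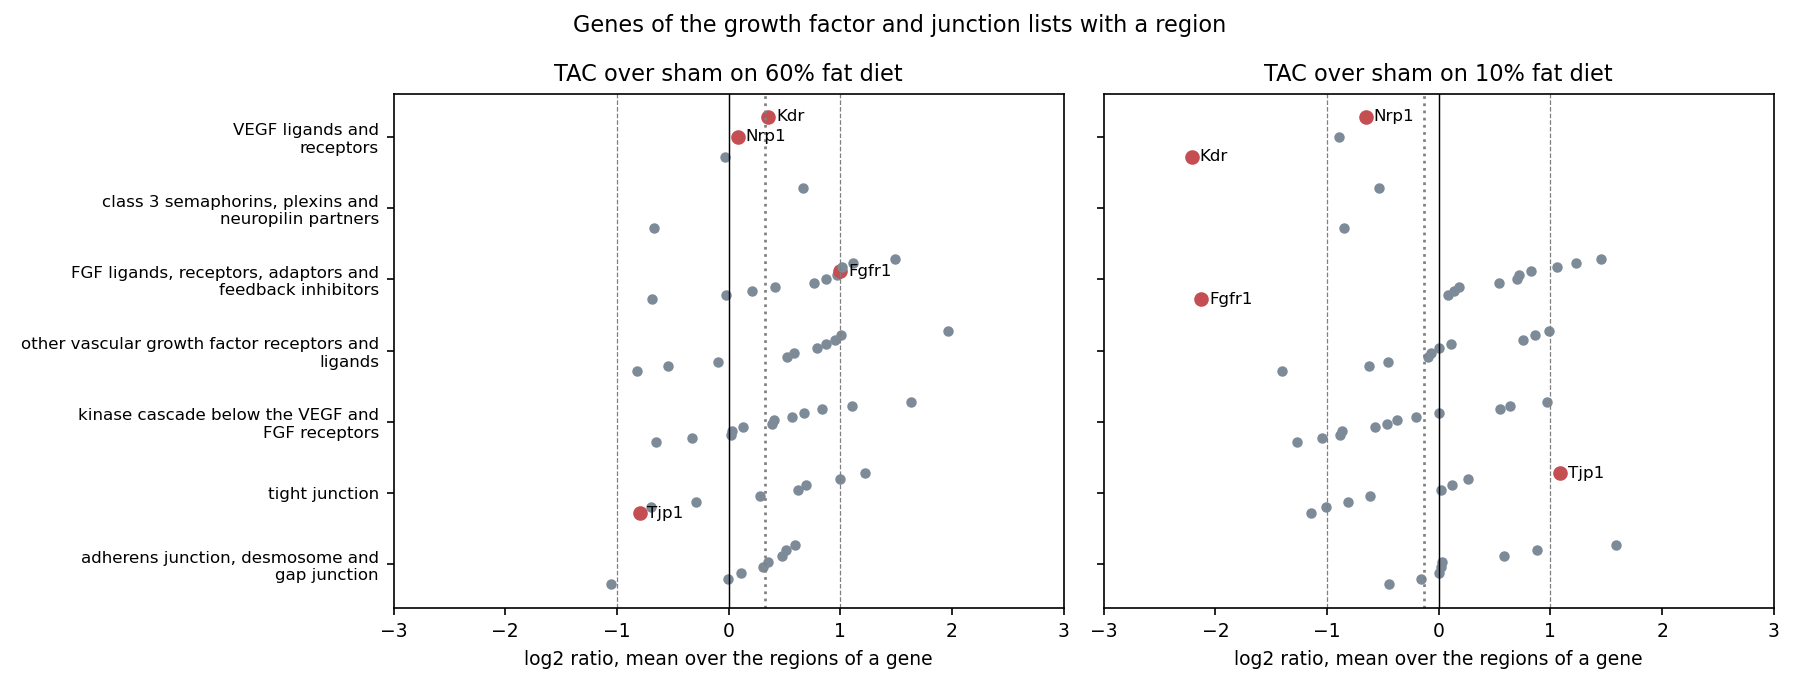
Log2 ratio of TAC over sham hearts on 60% fat diet (left) and 10% fat diet (right) for the 54 genes with a region in 7 lists, each point the mean over the regions of a gene. Members are red and named, dashed lines mark 2-fold and the dotted line the median of all genes. On 10% fat diet Kdr and Fgfr1 lie lowest, at -2.21 and -2.12. The other 10 genes of the FGF list lie above 0, with Klb the closest to it at 0.08.

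Marker genes of cell types seldom carried a region. Of 14 endothelial markers 2 did, Kdr and Esam, and Pecam1, Cdh5, Tek, Tie1 and Cldn5 had none, so the share of endothelial chromatin was not measured through them. The summed signal of the 2 endothelial regions was 8.64 in TAC and 5.68 in sham hearts on 60% fat diet and 7.0 in TAC and 26.0 in sham hearts on 10% fat diet. Of 14 cardiomyocyte markers 4 did, Myh6, Myh7, Ttn and Pln, with a summed signal of 12.7 in TAC and 26.8 in sham hearts on 60% fat diet and 15.6 in TAC and 37.7 in sham hearts on 10% fat diet. Pln was lower after TAC on 60% fat diet, as the rest were, with 2.33 in TAC and 11.2 in sham hearts. On 10% fat diet it was not lower after TAC, unlike the rest. Its signals there, 1.17 in TAC and 1.00 in sham hearts, were close to the pseudocount of 1. Fibroblast markers had 0 of 9. Smooth muscle and pericyte markers had 1 of 8 (Cnn1, summed signal 8.11 in TAC and 3.78 in sham hearts on 60% fat diet and 6.00 in TAC and 13.4 in sham hearts on 10% fat diet). Macrophage and leukocyte markers had 1 of 9 (Cd68, with 41.2, 37.7, 41.7 and 50.7 in that order), in regions shared with other genes. Log2 ratios of TAC over sham on 10% fat diet were -1.89 at Ttn, -1.15 at Esam, -1.11 at Myh6, -1.05 at Cnn1, -0.96 at Myh7, -0.24 at Cd68 and 0.12 at Pln, beside a median of -0.14 over all regions and the -2.21 of Kdr, itself an endothelial marker. Regions of Esam, Myh6, Myh7, Pln and Cnn1 were also shared with other genes. The part of cell composition in the values of Kdr, Nrp1, Fgfr1 and Tjp1 was not tested.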

How the data were processed

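The deposited table, per the file headers, gives for each of 3885 merged regions the average signal and the highest signal (fragment pileup) in 4 anti-ACAA2 libraries, a mark for a called interval, and the authors' log2 ratios. BWA, SICER and mm10 are named in the submitters' processing notes. Versions, cutoffs and any depth matching were not given in the sources used here. Deposited log2 ratios equal those of the average signals without a pseudocount. Members and lists were chosen with earlier results of these data known. Named genes are all member regions, the 3 most alike single-gene regions of each, neighbours within 500 kb, the 2 genes of highest signal per list and those 2-fold different after TAC; some of these are not reported here. Ratios used a pseudocount of 1 and no scaling. Fragments were estimated as the average signal times length over 224, a coverage equivalent that can lie below the number meeting a region. They were rounded for exact Clopper-Pearson (ratios) or Poisson (levels) 95% intervals, and intervals of differences were combined by square-and-add. Of 1303 single-gene regions 71.5% had the table's distance within 2 bp of that from the region's centre to a RefSeq start. Of 5134 gene symbols 5014 matched RefSeq. With 1 library per group no test was made. Other pseudocounts, scalings, the highest signal and narrower sets of regions were tried as alternatives. The pooled input was not analysed here. Code was tested on simulated data. Python 3.11.15, numpy 2.4.6, pandas 2.3.3 and scipy 1.17.1 were used.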

Additional observations from a re-analysis of the deposited data

Results flagged for a closer look

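At all 5 regions the log2 ratios of TAC over sham hearts had opposite signs on the diets. On 60% fat diet all 5 counting intervals included equality. On 10% fat diet those of both Nrp1 regions and Tjp1 did, so the signs are those of point values. The log2 ratio on 60% minus that on 10% fat diet was 2.57 at Kdr, 2.45 at Nrp1 region 1, -0.98 at Nrp1 region 2, 3.12 at Fgfr1 and -1.88 at Tjp1. The difference was not tested, since each group has 1 library, and 51.1% of all regions also had opposite signs. With the highest instead of the average signal, 4 of the 5 regions kept opposite signs, since Nrp1 region 2 was equal in TAC and sham hearts on 10% fat diet.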

How the results depend on the processing

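Under the 6 other settings (no pseudocount, a pseudocount of 5, highest signal, centring, quantile normalization, scaling by summed fragments) all 150 recomputed member values stayed within their counting intervals, which are wide and so say little on stability. For diet in sham hearts 3 of the 5 members (both Nrp1 regions and Tjp1) changed sign under some settings. On 10% fat diet Kdr ranged from -2.63 to -1.41 and Fgfr1 from -2.50 to -1.37, 2-fold under all 6, Nrp1 region 1 from -1.77 to -0.84 and Tjp1 from 0.77 to 1.22. On 60% fat diet Fgfr1 (0.62 to 1.19) and Nrp1 region 1 (0.65 to 1.12) stayed 2-fold under 1 of the 6. Counts over all regions moved more, here given as higher and lower for TAC over sham on 60% and 10% fat diet and for diet in sham and TAC hearts. As reported they were 604 and 121, 310 and 455, 78 and 962, and 272 and 440. With a pseudocount of 5 they were 169 and 24, 101 and 132, 15 and 350, and 76 and 156. In regions with a call in a library outside the comparison they were 318 and 69, 55 and 101, 32 and 371, and 80 and 128. In regions whose higher library reached the median, 68 were lower on 60%, 164 higher and 243 lower on 10% fat diet, 36 higher in sham hearts, and 161 higher and 293 lower in TAC hearts. Without a pseudocount 192 were lower on 60% fat diet. On 60% fat diet centring gave 272 and 300, quantile normalization 275 and 282 and scaling 313 and 288. In sham hearts they gave 321 and 266, 290 and 275, and 291 and 298. Of the 2-fold regions 83.3%, 40.5%, 7.5% and 38.2% were higher in these comparisons, and 47.6%, 56.7%, 54.7% and 54.5% after centring, which balances them by construction. Of 112 list counts 14 moved by over 1.5 times with each gene's highest region or single-gene regions. No library could be left out. No paired analysis was possible because each group has 1 library. Regions hold few fragments, so counting error limits every single ratio.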
